A study of Apis mellifera with 6 samples.

Results

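In order to describe where accessible chromatin crowds together in the honey bee genome, the 50 kb bins that hold 25 or more accessible sites were taken from ATAC-seq peak lists of adult brains. An accessible site is a stretch covered by a peak in at least 1 of 6 libraries, after peaks that overlapped by 1 bp or more were merged. The 16 chromosomes were cut into 50 kb bins from their first base and a site was placed by its midpoint. The rule kept 235 of the 4407 bins that lie whole within the known extent of a chromosome (5.33%), which together span 11.75 Mb. They hold 6478 of the 59043 sites on the chromosomes (10.97%). The bins were selected on the number of sites in these same libraries, so their site and peak counts are a description and carry no test.

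The libraries come from the central brain of newly eclosed queens, workers and drones of Apis mellifera, with 2 libraries for each phenotype. Queens were grafted as larvae into queen cups, and workers and drones came from capped comb. All bees shared 1 mother queen and were taken within an hour of emergence, with no treatment. Each library is a pool of 5 brains without optic lobes and hypopharyngeal glands, so replicates differ as pools do. Queens and workers are diploid females and drones are haploid males. A run label stands in the peak names of queens and workers and is missing from those of drones, so phenotype and a possible run difference cannot be told apart where drones are compared. In bulk tissue, fewer cells with an open site and less opening per cell cannot be told apart either.

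ATAC-seq uses the Tn5 transposase, which cuts DNA that is free of nucleosomes. Open sites of this kind lie at gene starts and at enhancers, the distant switches that set when and where a gene is read. Genes under elaborate control, such as those for hormone receptors and transcription factors, are known in insects and other animals to keep many such switches in long introns and in the flanking DNA, which can place a crowd of open sites around a few genes.

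Across all 4407 bins the number of sites had a median of 13 (quartiles 8 and 18) and a mean of 13.4 ± 6.71 (SD over bins). No site was found in 56 bins and the highest number was 44. The 235 dense bins form the upper tail of this distribution and are not a separate class. Their median was 27 sites, 63 of them held exactly 25, and 46 held 30 or more. Just outside the rule, 93 bins held 24 sites. The bins of 24 and of 25 sites were alike in every library, with medians of 13 and 13 peaks in queen replicate 1, 11 and 12 in queen replicate 2, and 16 and 18 in worker replicate 1. In worker replicate 2 these medians were 16 and 17 peaks, in drone replicate 1 17 and 17, and in drone replicate 2 14 and 15. The plot of sites per bin shows this unbroken slope across the threshold.

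**Figure D1:**
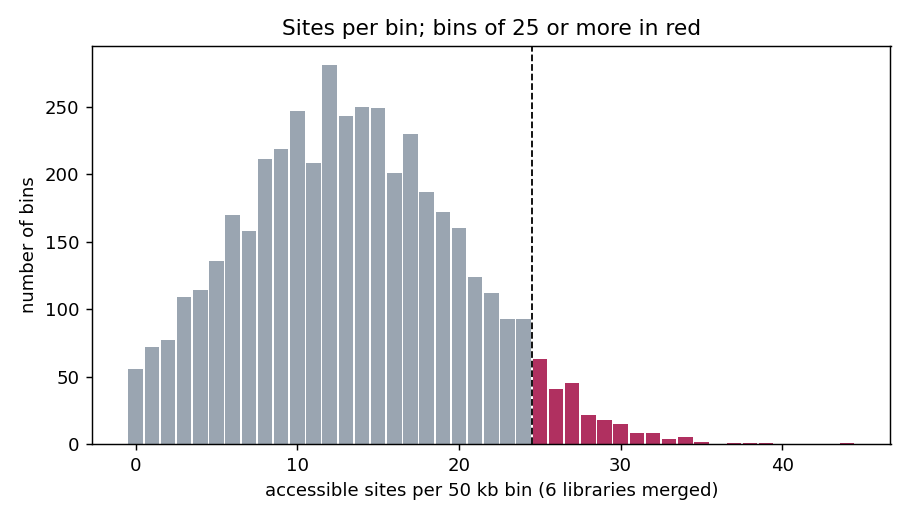
Number of 50 kb bins (y axis) at each number of accessible sites per bin (x axis) for the 4407 whole bins, with the 235 bins of 25 or more sites in red. The counts fall without a gap from 93 bins at 24 sites to 63 at 25, and 1 bin stands alone at 44 sites.

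The number of dense bins rests on how many lists are merged. Without drone replicate 1 the rule kept 153 bins and without worker replicate 2 it kept 155, and 150 and 152 of these were among the 235. With any 1 library left out, between 153 and 213 bins were kept. When only sites called in 2 or more libraries were counted, 23 bins reached 25 sites, all of them among the 235.

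Dense bins were spread unevenly over the genome. Chromosome LG3 (LG, linkage group, the chromosome names of the gene table) held 27 of them, 9.93% of its 272 bins. LG5 followed with 23 (8.30%), LG11 with 25 (7.65%) and LG16 with 11 of 144 (7.64%). LG1, the longest chromosome, also held 25, but these were only 4.50% of its 555 bins. LG14 held 2 of 213 (0.939%), LG9 held 4 (1.63%) and LG12 held 4 of 230 (1.74%). LG12 as a whole is not poor in sites, with 13.3 sites per bin against 13.4 over all bins, while LG9 has 10.8 and LG14 11.9. The bar chart by chromosome shows the span from LG14 to LG3.

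**Figure D2:**
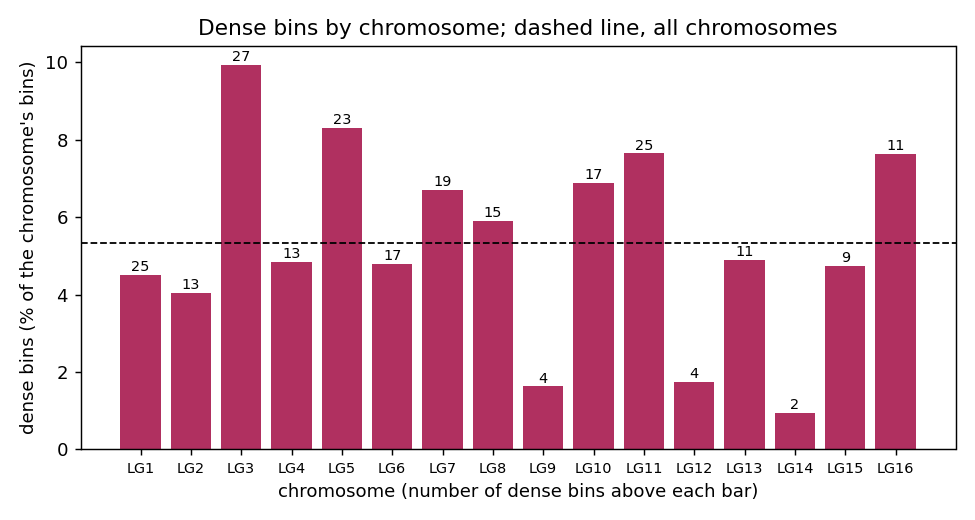
Percentage of each chromosome's 50 kb bins that hold 25 or more sites (y axis) for LG1 to LG16 (x axis), with the number of dense bins above each bar and the share over all chromosomes, 5.33%, as a dashed line. LG3 stands highest at 9.93% and LG14 lowest at 0.939%.

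Dense bins were also more frequent toward the end of the chromosome with the higher coordinates. When each chromosome was cut into 4 parts of about equal length, 57 dense bins fell in part 1 (5.16% of its bins), 36 in part 2 (3.26%), 32 in part 3 (2.89%) and 110 in part 4 (10.1%). The last part thus held 46.8% of all dense bins. It had the highest share of dense bins on 11 of the 16 chromosomes, with 25.4% on LG3, 21.3% on LG10, 18.8% on LG5 and 18.5% on LG11. On LG14, which held 2 dense bins in all, the last part led by only 1.89% against 1.85% in part 2. LG7 went the other way, with 15.5% in its first part and 4.29% in its last, and LG1 had 9.35% in the first and 2.17% in the last. LG16 had 11.1%, 13.9%, 5.41% and 0% from part 1 to part 4. LG13 was highest in part 2 (10.5%, against 3.57% in part 4) and LG12 in part 3 (5.17%, against 1.75%).

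The same gradient was present in each library taken alone over all bins. Queen replicate 1 had on average 6.34, 6.08, 6.46 and 8.02 peaks per bin from part 1 to part 4, and queen replicate 2 had 5.86, 5.68, 5.98 and 7.18. Worker replicate 1 had 7.45, 7.26, 7.76 and 10.1, and worker replicate 2 had 7.93, 7.95, 8.53 and 10.6. Drone replicate 1 had 8.18, 7.87, 8.04 and 10.1, and drone replicate 2 had 6.87, 6.53, 6.78 and 8.26. The last part was the highest in all 6 libraries. Genes were also more frequent there, with a mean of 3.49 gene midpoints per bin in the last part against 2.34, 2.46 and 2.80 in the others. The part of gene number in this gradient was not tested.

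Dense bins tended to lie side by side. A dense neighbour was present for 101 of the 235 (43.0%), whereas 428 of all whole bins (9.71%) had one, and 25 dense bins had a dense neighbour on both sides. The 327 bins next to a dense bin that were not dense themselves had a median of 18 sites (quartiles 14 and 21), and the 388 such bins 4 steps away still had a median of 16, above the median of 13 over all 4172 bins that were not dense. Adjacent bins can share 1 large gene, so they are not independent of each other. Of the runs that dense bins formed, 134 were single bins, 23 held 2 bins, 9 held 3, 4 held 4, 1 held 5 and 1 held 7.

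The run of 7 lies at LG3:11800001-12150000 and holds 204 sites in 350 kb. It had 105 and 93 peaks (queens), 146 and 144 (workers) and 129 and 107 (drones) (replicates 1 and 2 here and below). Since the lists differ in length, phenotypes are set in order here and below by the share of each library's list that lies in the bin and not by the count of peaks. By share, workers were the highest in this run, and queens and drones overlap. The 7 bins hold 28, 25, 30, 38, 30, 27 and 26 sites in order, and the flanking bins hold 14 and 21. The run touches 31 genes, and gene content changes sharply within it, since gene bodies cover 95.3% of the first bin, 22.5% and 19.1% of the next and 100% of the last. Its first bin begins with the end of Fem, feminizer, the gene that carries the female splicing signal in bee sex determination. Only 1 of the 28 sites of that bin lies in Fem. The run of 5 lies at LG11:13700001-13950000, with 150 sites and 13 genes, and had 74 and 68 peaks (queens), 109 and 99 (workers) and 104 and 78 (drones), and by share all phenotypes overlap except that workers lay above queens.

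Every library contributed to the dense bins. The 6 lists hold 29725 and 27298 peaks on the chromosomes for queens, 35981 and 38623 for workers and 37750 and 31389 for drones. The dense bins take 3407 and 3195 of these for queens, 4336 and 4435 for workers and 4463 and 3701 for drones. A dense bin had on average 14.5 ± 3.80 and 13.6 ± 3.61 peaks (queens), 18.5 ± 3.66 and 18.9 ± 3.58 (workers) and 19.0 ± 3.50 and 15.7 ± 3.51 (drones) (SD over 235 bins). These follow the order of the list lengths, except that worker replicate 2 and drone replicate 1 change places.

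Relative to the list, the dense bins took nearly the same share of each library. The share of peaks in dense bins was 11.5% and 11.7% (queens), 12.1% and 11.5% (workers) and 11.8% and 11.8% (drones). The phenotypes overlap, since 1 worker library is near the lowest value and the other is the highest. The mean share was 11.6% ± 0.171 for queens, 11.8% ± 0.402 for workers and 11.8% ± 0.0225 for drones (SD over n = 2). The peaks counted here also chose the bins, so these shares are given without a test.

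The density of the bins was also read in libraries that had no part in choosing them. For each library in turn, bins of 25 or more sites were chosen from the other 5 and the peaks of the library left out were counted in them. The bins chosen this way numbered 211 and 213 (queens), 171 and 155 (workers) and 153 and 198 (drones). The library left out had 2.17 and 2.23 times its own mean per bin in queens, 2.30 and 2.23 times in workers, and 2.32 and 2.24 times in drones (mean 2.25 ± 0.0545, SD, n = 6). Between 98.1% and 100% of the chosen bins lay above the mean of the library left out. The density was thus present in each library when the bins were chosen by the other 5. These always included the other library of the same phenotype, so no library was read in bins chosen by other phenotypes alone. The libraries share a genome, a mapping step and a peak caller, and the part of these in the shared density was not tested.

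**Figure D3:**
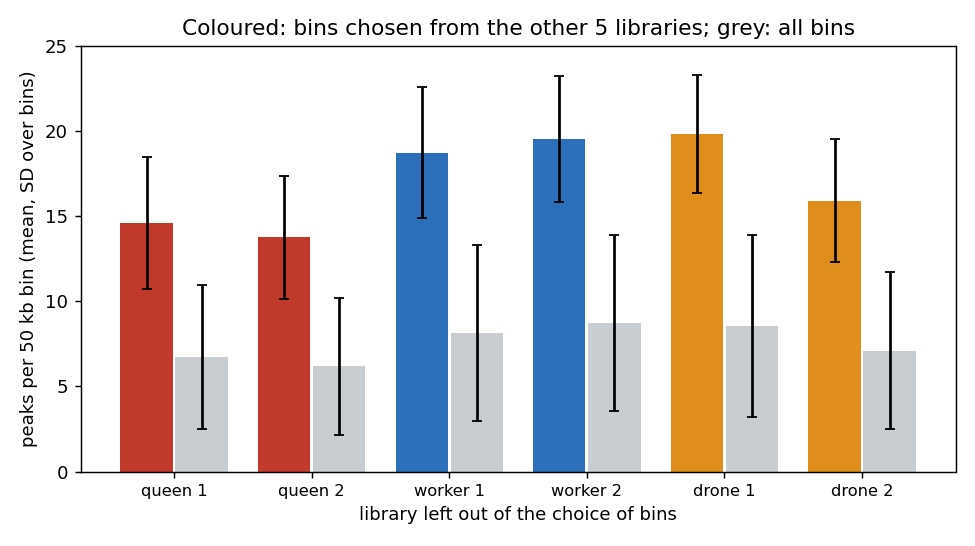
Mean peaks per 50 kb bin (y axis, error bars SD over bins) in each library (x axis), in bins of 25 or more sites chosen from the other 5 libraries (coloured) and in all 4407 bins (grey). The coloured bars stand 2.17 to 2.32 times as high as the grey bars.

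In order to see whether single dense bins differed between phenotypes, bins were counted in which both libraries of one phenotype lay above both of another in their share of the list. The queen libraries lay above the worker libraries in 46 of the 235 dense bins (19.6%), and this was so in 23.2% of all bins with a site and in 21% of bins of 15 to 24 sites. Workers lay above queens in 60 (25.5%), beside 20.8% of all bins and 24.7% of bins of 15 to 24 sites. Workers lay above drones in 47 (20.0%), beside 22.7% and 20.4%, and drones above workers in 51 (21.7%), beside 24.9% and 26.2%. Drones lay above queens in 73 (31.1%), beside 24.5% of all bins and 27.8% of bins of 15 to 24 sites. Queens lay above drones in 47 (20.0%), beside 26.4% and 20%. The dense bins were thus within a few percentage points of bins of 15 to 24 sites in all 6 counts, and these counts single out no phenotype in them.

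Peak counts that were not scaled to the list length gave another picture. Of the 235 dense bins, workers then lay above queens in 180 and queens above workers in 2, beside 45.6% and 2.18% of all bins. Drones lay above queens in 125 and queens above drones in 7, beside 35.3% and 7.86% of all bins. Workers lay above drones in 68 and drones above workers in 17, beside 23.4% and 9.91%. In each pair the larger count was a higher share of the dense bins than of all bins, and the smaller count a lower share. The dense bins were selected on many sites, so this contrast with all bins carries no test. The queen lists are the shortest, whereas the worker and drone lists overlap in length. The mapped reads given by the paper overlap between queens and workers and are highest in drones, so the list lengths are not in the order of reads. The part of depth in these counts was not tested.

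The dense bin with most sites was also the one that differed most between phenotypes. It is the first bin of LG3, LG3:1-50000, with 44 sites. It had 33 and 28 peaks (queens), 7 and 6 (workers) and 18 and 14 (drones). The 3 phenotypes do not overlap, with queens the highest and workers the lowest, by count and by share. The share of the queen lists in this bin was 3.36 times the mean share of the other phenotypes, and the next highest queen ratio among dense bins was 1.49. The worker ratio was 0.229 and the next lowest 0.714. The bin was found by this ratio among 235 bins. Of its 44 sites, 20 were called in queens alone, and without these it would fall short of the rule for dense bins. Its number of sites and its queen excess are therefore not independent, and the difference is a description. Workers also had fewer peaks than queens in the first bins of LG6, LG10, LG13, LG14 and LG15, which were not dense. LG13 had 5 and 4 peaks (queens), 2 and 0 (workers) and 6 and 6 (drones), and LG14 had 5 and 6, 3 and 2, and 9 and 5. In the first bins of LG1, LG2, LG4 and LG7 workers had more peaks than queens, and in the rest queens and workers met or overlapped. Across dense bins the middle range of the ratio was 0.878 to 1.07 for queens, 0.930 to 1.11 for workers and 0.914 to 1.13 for drones (lower to upper quartile).

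Of the 44 sites in this bin, 39 were called in at least 1 queen library and 20 in both, 33 were called in no worker library, and 20 were called in queens alone. Only 1 was called in all 6 libraries, and 17 were called in a single library. The sites lie between positions 1736 and 44826, and the next bin of LG3 holds 1 site. The long non-coding RNA gene LOC100577216 (LG3:2104-38014) spans 35 of the sites and the protein-coding gene LOC409422 (LG3:23922-222272) spans 21, and both overlap in part of the bin. The site called in all 6 lies at LG3:3070-3403, inside LOC100577216, with fold enrichments (pileup at the summit over the local background) of 5.45 and 8.02 (queens), 6.49 and 3.42 (workers) and 6.90 and 4.11 (drones).

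The local background of peaks moved with the number of peaks in this bin. The background is the number of fragments that the peak caller took as typical around a peak, recovered here from the fold enrichment and the p-value. Its median in the bin was 10.3 and 7.61 fragments (queens), 2.05 and 1.53 (workers) and 4.88 and 4.0 (drones). These are 4.66 and 4.05 times the median of the same library for queens, 1.25 and 0.972 times for workers and 2.34 and 2.56 times for drones. The queen libraries therefore had a higher local background at their peaks in this bin as well as more peaks. The part of the background in the peak counts was not tested.

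A raised background was most marked in another chromosome start. The first bin of LG2, LG2:1-50000, held 35 sites, with 17 and 11 peaks (queens), 22 and 22 (workers) and 31 and 21 (drones). Drones were the highest by share, and queens and workers overlap. Its median local background was between 11.3 and 33.7 fragments in the 6 libraries, which is 6.01 to 16.8 times the library medians, and 15 of its sites were called in a single library. Of its sites, only 4 lie in the protein-coding gene LOC726554. The remaining dense bin at a chromosome start, LG4:1-50000, had 27 sites, and 13 of them were called in all 6 libraries. Among the 16 first bins the median was 13.5 sites, and the 13 others held at most 22. No dense bin was the last of its chromosome, but a last bin is cut short of 50 kb and has less room for sites. Without the 3 dense first bins the shares of peaks in dense bins were 11.4% (queens), 11.6% (workers) and 11.6% (drones).

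The other bins at the top of the list were more alike between libraries. LG11:15200001-15250000 held 39 sites, with 19 and 21 peaks (queens), 28 and 28 (workers) and 25 and 23 (drones). By share, all 3 phenotypes overlap. The protein-coding gene LOC100576421 (LG11:15183030-15238397, 55.4 kb) spans 30 of its sites. The strongest site called in all 6 libraries, at LG11:15203715-15204176, lies in this gene, with fold enrichments of 9.93 and 12.2 (queens), 13.4 and 11.8 (workers) and 12.5 and 10.3 (drones). All 6 values for this site exceed those of the corresponding site in the first bin of LG3. LG3:11950001-12000000, in the middle of the run of 7, held 38 sites, 28 of them in LOC410922 (LG3:11946155-11987911). It had 19 and 17 peaks (queens), 23 and 28 (workers) and 21 and 17 (drones). By share, workers were the highest and drones the lowest without overlap, with queen replicate 1 just under worker replicate 1. Its strongest shared site, LG3:11987592-11987975, overlaps the higher-coordinate end of LOC410922 and had fold enrichments of 8.41 and 8.12 (queens), 11.5 and 12.6 (workers) and 10.2 and 9.20 (drones).

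LG11:2850001-2900000 was the bin with most sites common to all libraries, 21 of 37, and with 3 called in a single library. It had 27 and 27 peaks (queens), 29 and 27 (workers) and 31 and 32 (drones). By share, workers were the lowest, and queens and drones overlap. Gene bodies cover only 13.7% of this bin, and the genes in it include Mir14, a microRNA known in Drosophila for roles in cell survival and fat metabolism. LG3:9900001-9950000 was similar in that 18 of its 34 sites were shared by all libraries, with 25 and 22 peaks (queens), 33 and 32 (workers) and 28 and 22 (drones). By share, drones were the lowest in it and queens and workers overlap, and LOC724885 spans 15 of the sites.

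The remaining bins of the 10 densest were LG10:12200001-12250000 with 35 sites and LG3:1400001-1450000, LG3:12600001-12650000 and LG6:16050001-16100000 with 34 each. In the LG10 bin queens had 13 and 11 peaks, workers 22 and 19, and drones 20 and 18, and the long non-coding RNA gene LOC107965076 spans 24 of the sites. In LG3:12600001-12650000 queens had 22 and 16 peaks, workers 25 and 28, and drones 22 and 18, and LOC724737 spans 23. In the LG6 bin queens had 17 and 9, workers 24 and 22, and drones 22 and 21, and LOC550930 spans 23. By share, queens were the lowest in the LG10 bin and drones in the LG3 bin, and in the LG6 bin queens lay below drones while workers overlap both. LG3:1400001-1450000 stood out by its genes, with 22 gene midpoints, the most of any bin, of which 17 are ribosomal RNA genes. It had 16 and 16 peaks (queens), 16 and 19 (workers) and 27 and 23 (drones). By share, drones were the highest there and workers the lowest. Ribosomal RNA genes are commonly near-identical copies, and how reads were shared among them is not known. The median local background in this bin was 0.760 to 1.33 times the library medians. The part of read sharing in its peak count was not tested.

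**Figure D4:**
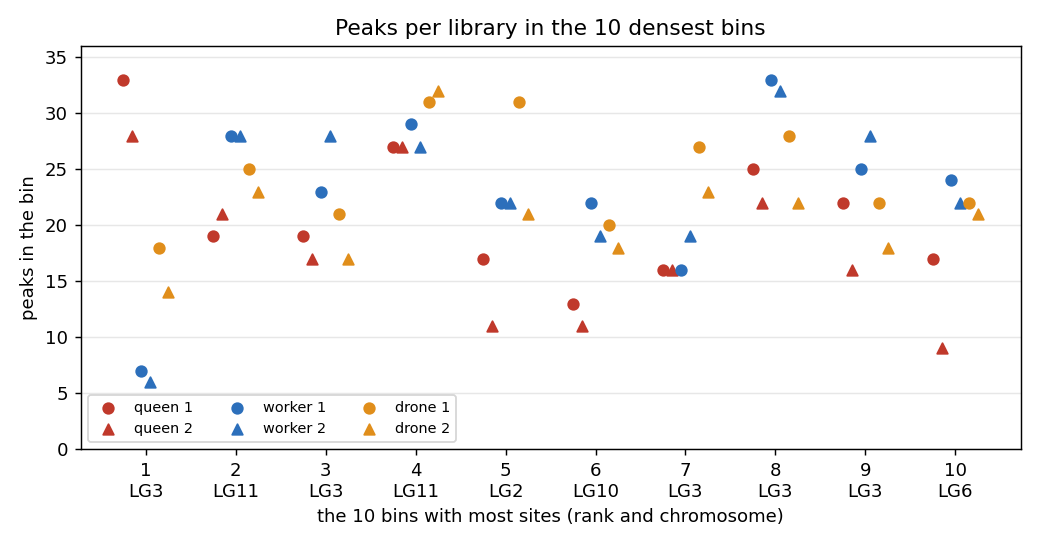
Peaks in the bin (y axis) in each of the 6 libraries for the 10 bins with most sites (x axis, rank and chromosome), with circles for replicate 1 and triangles for replicate 2. The first bin, at the start of LG3, runs from 33 and 28 peaks in queens to 7 and 6 in workers, and in the others the phenotypes lie closer together.

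Some of the bins at the other extremes of the ratios lay within a single large gene. The smallest queen ratio, 0.489, was at LG5:13000001-13050000, with 5 and 5 peaks (queens), 11 and 16 (workers) and 15 and 10 (drones), all 27 sites within LOC552545. The largest drone ratio, 1.53, was at LG12:9850001-9900000, with 6 and 3 peaks (queens), 10 and 8 (workers) and 11 and 10 (drones). All 25 of its sites lie in LOC552397, a gene of 232.7 kb, and 14 of them were called in a single library. By share, drones were the highest and queens the lowest in this bin, although by count 1 drone and 1 worker library are equal.

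The smallest drone ratio, 0.598, was at LG9:11100001-11150000, with 14 and 13 peaks (queens), 23 and 21 (workers) and 12 and 10 (drones). The long non-coding RNA gene LOC102656338 spans 22 of its 25 sites, and the 3 phenotypes do not overlap by share, with workers the highest. The largest worker ratio, 1.61, was at LG10:3200001-3250000, with 6 and 8 peaks (queens), 18 and 15 (workers) and 11 and 10 (drones). This bin spreads its 27 sites over many genes, with 6 in LOC409847. Each of these bins is the most extreme of 235 and was found by its values.

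Sites in dense bins were shared by more libraries than sites elsewhere. Of the 6478 sites in dense bins, 1991 (30.7%) were called in all 6 libraries and 1599 (24.7%) in 1. In bins of 15 to 24 sites these shares were 29.2% and 28.4%, and in bins of under 15 sites 24.3% and 33.7%. A dense bin had between 1 and 21 sites called in all libraries (median 8) and between 1 and 17 called in a single one (median 7). The single-library sites came from the libraries in similar proportions inside and outside the dense bins, with drone replicate 1 giving 27.9% and 26.5% of them and queen replicate 2 6.82% and 7.51%.

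**Figure D5:**
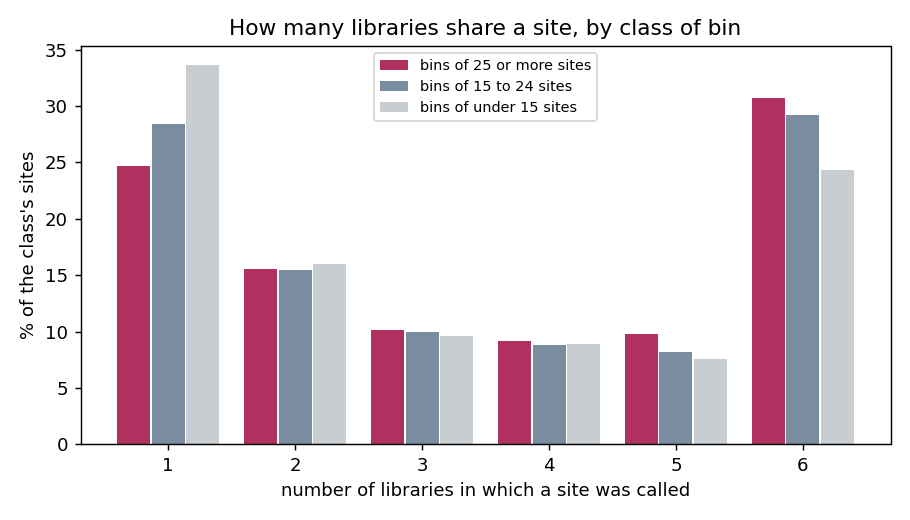
Percentage of sites (y axis) called in 1 to 6 libraries (x axis) in bins of 25 or more sites, of 15 to 24 sites and of under 15 sites. Sites called in 1 library fall from 33.7% in the sparsest class to 24.7% in dense bins, and those called in all 6 rise from 24.3% to 30.7%.

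Sites called in both libraries of one phenotype and in none of the other 4 had a share in dense bins near that over all sites for workers and below it for queens and drones. There were 27 for queens in dense bins (0.417%, beside 0.606% of all sites), 240 for workers (3.70%, beside 3.56%) and 225 for drones (3.47%, beside 4.03%). Of the 27 for queens, 7 lay in the first bin of LG3.

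Peaks in dense bins were not stronger by fold enrichment. The median fold enrichment was between 5.11 and 5.67 over the 6 libraries in dense bins, between 5.65 and 6.15 in bins of 15 to 24 sites, and between 5.71 and 6.36 in bins of under 15 sites. The median pileup at the summit was higher in dense bins, at 18 to 22 fragments against 14 to 16 in bins of under 15 sites. The local background was higher as well, at 2.38 to 3.24 fragments against 1.71 to 2.37 in bins of 15 to 24 sites and 1.15 to 1.81 in the sparsest. Peak width differed little, with medians of 138 to 147 bp in dense bins and 135 to 143 bp in the sparsest. Peaks in dense bins thus had both a higher summit pileup and a higher local background, and a lower ratio of the former to the latter. Neighbouring sites in a dense bin were 933 bp apart in the median, against 1421 bp and 2630 bp in the other classes. The caller sets the background over a window around each peak, so close neighbours can enter it, and the part of this in the lower fold was not tested.

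Most sites of the dense bins lay inside genes. The gene table gives the start and end of each gene without its exons or strand, so introns, exons and untranslated regions were not told apart. In dense bins 82.0% of sites lay in a gene body, against 79.9% in bins of 15 to 24 sites and 74.3% in bins of under 15. Sites within 200 bp of a gene end made up 10.5%, 12.6% and 11.3%. The share near gene ends was thus lowest in the dense bins. Gene bodies covered 90.6% of a dense bin in the median and 88.7% of all bins. The mean cover was 83.9% in dense bins, 81.6% in bins of 15 to 24 sites and 72.9% in bins of under 15. These means lie near the shares of sites in gene bodies, so sites are not shown to crowd into genes. They covered 43 dense bins in full, 118 over more than 90%, and 7 under 25%.

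In 145 dense bins a single gene spanned at least 50% of the sites. The gene that spanned most sites was protein-coding in 213 bins and a long non-coding RNA gene in 21. These counts were not made for other bins, so they are not shown to be particular to dense bins. A gene longer than 50 kb touched 55.7% of dense bins, 60.4% of bins of 15 to 24 sites and 63.0% of bins of under 15. Among the dense bins with little gene body was LG15:7050001-7100000, which held 27 sites and no gene body at all. It had 10 and 12 peaks (queens), 21 and 18 (workers) and 16 and 14 (drones). By share, workers were the highest, and queens and drones overlap. Another bin with little gene body, LG8:9550001-9600000 (9.42%), held 31 sites, with 20 and 20 peaks (queens), 20 and 20 (workers) and 25 and 17 (drones), and by share queens were the highest.

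Dense bins held more genes on average than other bins, up to a point, but little more than bins of 15 to 24 sites. They had 4.15 ± 3.33 gene midpoints (SD over bins) against 2.77 ± 3.20 over all bins, and 6.81% of them had none against 27.4% of all bins. Bins of 15 to 24 sites had 3.73 ± 3.44, with 16.2% without any, and the median was 3 in both classes. They also had 10 or more gene midpoints more often, in 7.59% against 5.53% of dense bins. The share of bins that were dense was 1.33% with no gene midpoint, 4.60% with 1 to 2, 9.93% with 3 to 4, 8.98% with 5 to 9 and 5.94% with 10 or more. The share was thus highest at 3 to 9 genes and lower again in the most gene-rich bins. The longest gene that touched a bin was 58341 bp in the median for dense bins and 82158 bp over all bins.

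By type of gene, 702 of 9870 protein-coding genes (7.11%) had their midpoint in a dense bin, beside 7.96% of all 12255 genes placed. The share was 209 of 1830 (11.4%) for long non-coding RNA genes, 25 of 195 (12.8%) for transfer RNA genes and 18 of 236 (7.63%) for microRNA genes. Genes of these types can lie within a few kb of one another and so share bins.

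Few genes of each named group touched a dense bin. The shares were 16%, 14.8%, 5.88%, 3.39% and 2.86% in the order below, beside 9.31% of all genes. The lists were chosen by symbol with the gene table in view. Of 25 genes for transcription factors and hormone receptors, 4 touched a dense bin, namely Ecr, E74, Psq and Dll. Of 27 neurotransmitter receptor genes 4 did so, Nmdar1, nAChRa3, mGlutR1 and Glurb, and of 17 genes for ion channels and synapse proteins only Syx1A. Of 59 chemosensory genes 2 did so, Obp10 and Obp11, which lie in 1 bin, and of 35 genes for cuticle and royal jelly proteins only Cpap3-b. The groups differ in gene length, with medians of 26695, 43374 and 60375 bp in the first 3 lists and 2072 and 3041 bp in the others, and a longer gene touches more bins. By gene midpoint the counts were 3, 2, 1, 2 and 1 (12%, 7.41%, 5.88%, 3.39% and 2.86%), beside 7.96% of all genes. With so few genes in each count, no difference between the groups is read from them.

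The dense bins of hormone and insulin genes included those of Ecr, the receptor of the moulting hormone ecdysone. Of the 3 bins that Ecr (LG8:9626947-9747799, 120.9 kb) touches, 2 were dense. The middle one held 34 sites, all within Ecr, with 21 and 16 peaks (queens), 21 and 29 (workers) and 21 and 20 (drones). The next held 25 sites, 22 of them within Ecr, with 19 and 17 peaks (queens), 20 and 19 (workers) and 19 and 15 (drones). By share, the phenotypes overlap in the middle bin, and queens lay above workers and drones in the other. By contrast, Mad, a signal transducer of the BMP pathway, touches 9 bins of 8 to 22 sites, Usp, the partner of the ecdysone receptor, 2 bins of 21 and 23, and Csd, the sex determiner next to Fem, 1 bin of 14, and none is dense.

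E74 (LG3:3327213-3476366) is known in Drosophila as an early target of ecdysone. Among the 4 bins it touches, the dense bin held 27 sites, all in its body, with 16 and 13 peaks (queens), 16 and 18 (workers) and 16 and 17 (drones). By share, queens lay above workers, and drones overlap both. InR-2 (LG2:14542801-14593835) encodes an insulin receptor. Its dense bin held 25 sites, 20 of them in its body, with 8 and 9 peaks (queens), 17 and 16 (workers) and 14 and 7 (drones). By share, workers were the highest in it, and queens and drones overlap. This gene and those in the next 2 paragraphs were picked for their known roles after their bins were known.

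Genes of the synapse were represented by a few bins. nAChRa3 (LG5:12117944-12196914) encodes a subunit of the nicotinic acetylcholine receptor, the main excitatory receptor of the insect brain. Its dense bin held 33 sites, all within the gene, with 17 and 15 peaks (queens), 26 and 27 (workers) and 20 and 17 (drones). By share, workers were the highest there and drones the lowest, with queens just above drones. mGlutR1, a metabotropic glutamate receptor, lies in a bin of 27 sites, 16 of them in its body, with 15 and 9 peaks (queens), 17 and 14 (workers) and 16 and 12 (drones). Syx1A, a syntaxin of the vesicle fusion machinery, shares a bin of 30 sites with Cdk5, a kinase of neurons, and with 18 and 14 peaks (queens), 22 and 23 (workers) and 20 and 15 (drones). This bin belongs to a run of 4 dense bins at LG11:16100001-16300000 with 108 sites and 29 genes, which begins with that of Pkc, protein kinase C. Of the neuron genes looked for by symbol, Syt1, Para and brp were found, and each had a site called in all 6 libraries at a gene end.

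Several microRNA genes lay in dense bins. Mir100, Mirlet7 and Mir125, which act in developmental timing in Drosophila, lie within 1 bin of LG8 (LG8:7650001-7700000) that held 29 sites, 12 of them common to all libraries. It had 16 and 19 peaks (queens), 20 and 19 (workers) and 20 and 17 (drones), and by share all 3 phenotypes overlap. Mir317 lies in a bin of LG5 (LG5:7000001-7050000) with 33 sites, 16 of them common to all libraries, and with 24 and 20 peaks (queens), 26 and 24 (workers) and 27 and 24 (drones). A site lies on Mir317 itself. The bin of Mir989 (LG2:14900001-14950000) differed from these, where 2 of 27 sites were common to all libraries and 10 came from a single one. It had 7 and 5 peaks (queens), 14 and 13 (workers) and 15 and 12 (drones), with queens the lowest by share, and it belongs to a run of 4 dense bins with 108 sites at LG2:14850001-15050000.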

How the data were processed

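The authors made ATAC-seq libraries from pools of 5 brains, used BWA 0.7.17 to align reads to assembly HAv3.1, took fragments no longer than 100 bp and ran MACS2 on every library separately. Treatment of duplicates is not given in the sources used here. The deposited lists give intervals, a score, a fold enrichment (a ratio to local background) and −log10 values of a p-value and a q-value, with q under 0.01. Lists hold between 28026 and 39158 peaks. They hold no reads, so no count model was used, and intervals of counting error do not apply.

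Peaks on the 16 chromosomes were merged at 1 bp of overlap and binned by midpoint (Python 3.11.15, pandas 2.3.3, numpy 2.4.6, scipy 1.17.1). Fold and p-value were solved for a whole summit pileup and a local background. Each step was tested on simulated data. All values are descriptions. The planned exact permutation test of the share of peaks in dense bins is not used, since the same peaks chose the bins and its smallest p is 0.0667. Genes came from a RefSeq table of the same assembly. Its chromosome names were matched to those of the lists in numerical order. The pairing was then checked by the share of sites within 200 bp of a gene end. This share was 8.29% to 16.2% for the pairing used and at most 6.15% for any other. The planned GC content, motifs and gene classes by description need sequence or descriptions not used here, and no sequence is shown. Gene lists by symbol took the place of the classes. The members and lists were chosen with earlier results of these data known. Named bins were the 10 with most sites, the extremes of each phenotype's ratio, the longest run and bins of 5 genes (Mad, Ecr, Usp, Csd, Fem), with up to 3 genes each that hold most sites. The strongest site called in all 6 libraries was named in the 3 densest bins.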

Additional observations from a re-analysis of the deposited data

How the results depend on the processing

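The number of dense bins depended on the threshold and on the lists. It was 59 with a −log10 q of at least 5, 70 when each list was shortened to its 27298 strongest peaks, 819 at 20 sites, 46 at 30 sites and 23 with sites called in 2 or more libraries, and 153 to 213 with 1 library left out. All 10 of the densest bins were kept under each of these except that 8 of the 10 were kept with sites called in 2 or more libraries, where the first bin of LG2 and that at LG10:12200001-12250000 were lost. The shares of peaks in dense bins for queens, workers and drones were 3.53%, 3.68% and 3.70% with the stricter q, 4.17%, 4.29% and 4.36% at equal list length, 33.8%, 34.5% and 34.7% at 20 sites, 2.72%, 2.68% and 2.69% at 30 sites, and 1.53%, 1.43% and 1.47% with sites called in 2 or more libraries. With bins shifted by 25 kb the drone share was 12.1%. Without the dense bins at chromosome starts, an alternative chosen after seeing the data, the queen and drone shares were 11.4% and 11.6%. With 1 library left out the shares were 8.10% to 10.7% (queens), 8.19% to 10.8% (workers) and 8.22% to 10.9% (drones).

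The ratio in a library left out of the choice was 2.75 with the stricter q and 2.19 with the same number of bins. For bins in which phenotypes do not overlap, counts not scaled to list length gave 2 for queens above workers, 7 for queens above drones, 180 for workers above queens, 125 for drones above queens and 17 for drones above workers, and equal list length gave 20 for queens above workers and 32 for drones above workers. With 1 library left out, where a single library stands for its phenotype, the counts were 61 to 91 for queens above workers, 72 to 86 for queens above drones, 79 to 103 for workers above queens, 74 to 95 for workers above drones, 95 to 109 for drones above queens and 80 to 91 for drones above workers. The share of genes in dense bins was 9.31% when a gene belonged to every bin it overlaps and 7.11% for protein-coding genes. Fewer peaks or sites entered by construction under the stricter settings, and the cause of other shifts was not tested.

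The replicate numbers do not pair the samples (correlations of deviations 0.00552, -0.0403 and 0.00447), and the planned permutation of the shares with a replicate block (0.833, where the smallest p is 0.167) is void as a test, since the same peaks chose the bins.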
